A study of Mus musculus with 6 samples.

Results

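The genes described here are 10 genes of the NRF2 pathway and of antioxidant enzymes: Nfe2l2, Keap1, Cat, Sod1, Sod2, Sod3, Nqo1, Hmox1, Gclc and Txnrd1. They were chosen by symbol, and all 10 were found among the 16131 genes of the deposited table. RNA was measured on day 7 after wounding in skin of C57BL/6 mice whose diabetes had been induced by streptozotocin, which kills the beta cells of the pancreas. A group of 3 samples had received rFGF4, the recombinant form of fibroblast growth factor 4, at 100 ng/ml and 10 µl per day, and a group of 3 samples had received phosphate-buffered saline (PBS, 10 µl per day). Both groups were diabetic and wounded, so the comparison holds no healthy or unwounded skin. Sex and age are not given in the sources used here. Nothing in the labels ties a sample to its own mouse, so the p-values cover the spread among these libraries, which may be technical. Values are FPKM (fragments per kilobase of transcript, scaled to library size), which keep no read counts, so the depth behind each value is unknown.

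NRF2, encoded by Nfe2l2, is a transcription factor that switches on genes for detoxification and for defence against oxidants. Its partner KEAP1 holds it in the cytoplasm and hands it to the CUL3 ubiquitin ligase for destruction, and oxidants or electrophiles act on cysteines of KEAP1 and let NRF2 build up. NRF2 is thus regulated mainly as a protein, and its own transcript level does not measure its activity. In skin wounds, oxidants come from phagocytes and from mitochondria, and superoxide dismutases, catalase, glutathione and thioredoxin remove them in turn.

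NRF2 pairs with small MAF proteins on the antioxidant response element, so the promoters of the genes were searched for the core of that element, TGACNNNGC, and for its reverse complement, GCNNNGTCA. RefSeq promoter windows of GRCm38.p6, which run from 250 bases before to 50 bases after a transcription start, were found for 7 of the 10 genes, in 9 windows. The core lay in 3 of these 9 windows, and in 12.4% of all 32851 windows of the same length. It began 240 bases before the start of Nfe2l2 itself, 56 bases before that of Sod1 and 92 bases before a start of Txnrd1. A match of these letters is a description and not a binding site. The windows that hold the core are shown first, with the core in capitals, and that of Cat, where the letters were not found, is shown last because Cat and Sod1 are the genes called below.
Nfe2l2, chr2:75704614-75704913, minus strand: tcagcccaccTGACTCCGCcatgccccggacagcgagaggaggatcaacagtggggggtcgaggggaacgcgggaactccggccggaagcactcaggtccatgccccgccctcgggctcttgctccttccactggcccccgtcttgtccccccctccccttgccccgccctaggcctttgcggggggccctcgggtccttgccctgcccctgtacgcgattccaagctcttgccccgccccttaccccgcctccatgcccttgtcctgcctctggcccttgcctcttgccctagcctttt
Sod1, chr16:90220512-90220811, plus strand: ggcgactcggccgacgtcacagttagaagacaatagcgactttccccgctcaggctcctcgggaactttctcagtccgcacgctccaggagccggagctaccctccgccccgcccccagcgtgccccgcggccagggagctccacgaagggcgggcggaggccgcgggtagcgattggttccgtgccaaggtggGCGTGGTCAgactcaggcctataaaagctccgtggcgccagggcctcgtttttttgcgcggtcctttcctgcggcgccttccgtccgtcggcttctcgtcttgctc
Txnrd1, chr10:82858956-82859255, plus strand: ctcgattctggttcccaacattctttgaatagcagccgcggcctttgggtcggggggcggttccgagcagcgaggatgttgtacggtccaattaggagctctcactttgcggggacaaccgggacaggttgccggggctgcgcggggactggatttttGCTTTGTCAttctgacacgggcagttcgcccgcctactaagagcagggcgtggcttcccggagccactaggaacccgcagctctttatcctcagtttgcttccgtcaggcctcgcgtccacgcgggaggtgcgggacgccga
Cat, chr2:103485104-103485403, minus strand: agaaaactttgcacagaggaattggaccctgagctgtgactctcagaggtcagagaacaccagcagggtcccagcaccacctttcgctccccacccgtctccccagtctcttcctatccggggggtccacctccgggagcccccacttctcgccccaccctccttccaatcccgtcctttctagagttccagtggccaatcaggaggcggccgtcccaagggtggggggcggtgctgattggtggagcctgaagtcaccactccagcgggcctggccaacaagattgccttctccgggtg

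The comparison of rFGF4 with PBS asks which transcripts differed between treated and control diabetic wounds. Of the 10 genes, Cat rose and Sod1 fell with rFGF4, and the other 8 did not pass the test. Catalase transcripts averaged 38.0 ± 3.01 FPKM in rFGF4 and 25.2 ± 3.81 FPKM in PBS libraries (SD, n = 3 each), and those of the cytosolic superoxide dismutase averaged 12.3 ± 2.15 FPKM in rFGF4 and 22.1 ± 2.12 FPKM in PBS libraries. A gene was called when its adjusted p was under 0.05 by limma on log2(FPKM + 0.1), with Benjamini-Hochberg adjustment over the 14676 genes that reached 1 FPKM in at least 3 libraries, and all 10 genes were among these. Over all tested genes 8.46% were called higher and 3.62% lower, and the 1 higher and 1 lower call among 10 genes are to be read against these shares. The groups did not overlap in 5 of the 10 genes, 3 of them higher and 2 lower with rFGF4, where 30.9% of all tested genes lay apart on the higher side and 7.36% on the lower side. The median log2 fold change of the 10 genes was 0.33, and that of all tested genes was 0.19.

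**Figure D1:**
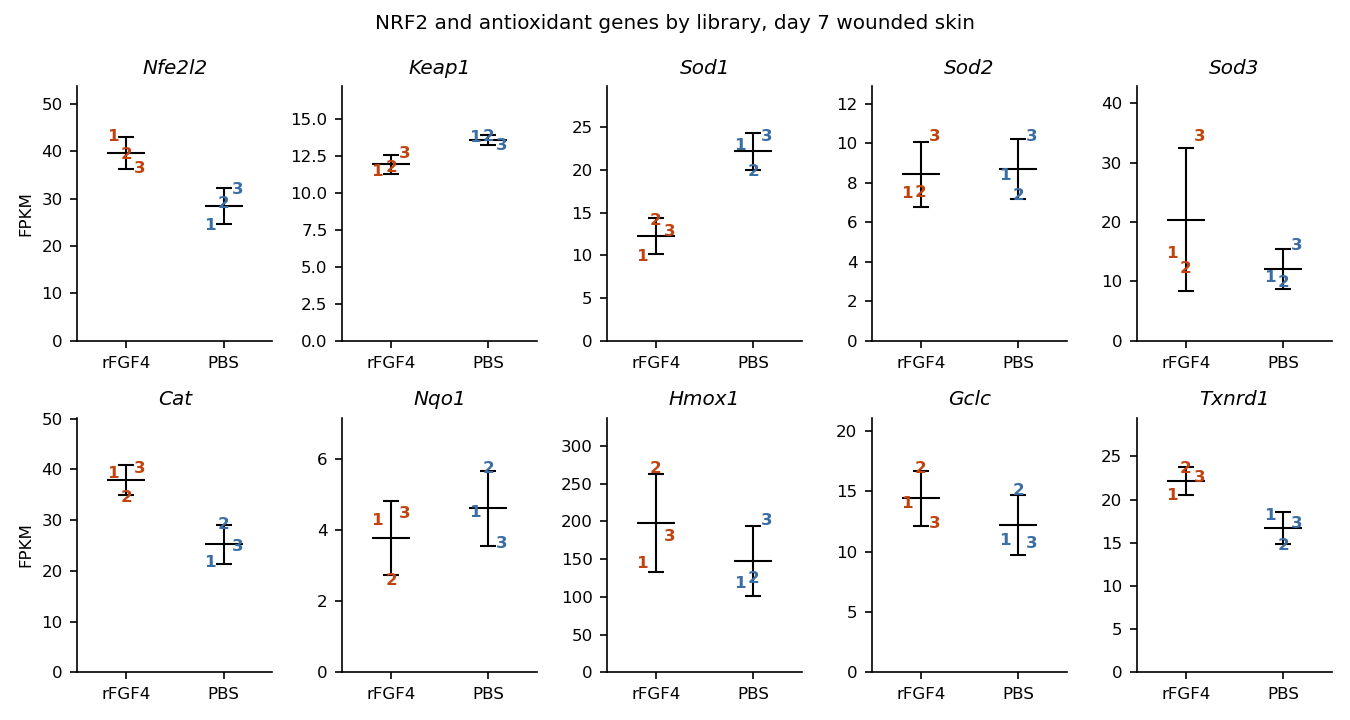
FPKM of each of the 10 genes by library, rFGF4 on the left and PBS on the right of each panel; digits are replicate numbers, and bars are the mean and SD of 3 libraries, on axes that start at 0. The groups lie apart for Nfe2l2, Cat and Txnrd1 (higher with rFGF4) and for Keap1 and Sod1 (lower), and rFGF4 replicate 3 stands above all other libraries for Sod3.

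Features of the whole table bear on these values. Fold changes followed transcript length: the median log2 fold change was -0.28 from 600 to under 1000 bases, where 14.9% of genes were called lower, and 0.22 from 2000 to under 4000 bases, where 8.04% were called higher. The extremes lay further out. The median was -0.55 under 600 bases, where 30.2% of genes were called lower. It was 0.38 at 4000 bases and over, where 714 of 3957 genes were called higher. With the trend on length removed from each library, 0.543% of genes were called higher and 1.61% lower, and 0 of the 10 genes passed limma, while 3 of them, Keap1, Sod1 and Sod2, had an unadjusted p under 0.05, against 16.2% of all genes. Of all calls 70.0% were higher as deposited, 18.3% with median-centred libraries and 31.4% with quantile normalization. Leaving out single libraries also cut the calls, to 24 to 393 genes higher and 132 to 497 lower. Of the cell type markers with an entry in the table, 0 were listed at 0 in any library. The skin markers Krt5 and Krt14, keratins of basal keratinocytes, were abundant in all libraries, at 832 to 2402 FPKM for Krt5, and skeletal muscle markers were present too, summing to 1333 to 2730 FPKM in rFGF4 and 2046 to 4292 FPKM in PBS libraries. In bulk tissue, fewer cells of a type and less RNA per cell cannot be told apart.

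Nfe2l2, the gene of NRF2, measured 43.0, 39.3 and 36.3 FPKM in rFGF4 replicates 1 to 3, against 24.3, 28.9 and 31.9 FPKM in PBS replicates 1 to 3. All 3 rFGF4 libraries lay above all 3 PBS libraries, the closest pair being rFGF4 replicate 3 and PBS replicate 3. Its log2 fold change was 0.48 (SE 0.142, 95% interval 0.15 to 0.82), or 0.29 above the median of all genes, and it missed the threshold (limma adjusted p = 0.0682). It was 0.26 once the length trend had been removed (limma adjusted p = 0.433). Nfe2l2 lies on the minus strand of chromosome 2, from 75675513 to 75704641 on GRCm38, and its principal transcript in GENCODE M21 has 5 exons and 2475 bases.

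Keap1, the gene of the adaptor that holds NRF2 back, measured 11.4, 11.7 and 12.7 FPKM in rFGF4 libraries, against 13.7, 13.8 and 13.2 FPKM in PBS libraries. The groups lay apart with rFGF4 lower, but by a small margin, and Keap1 varied less among PBS libraries than any other of the 10 genes (coefficient of variation 5.39% in rFGF4 and 2.35% in PBS libraries). Its log2 fold change was -0.18 (SE 0.101, limma adjusted p = 0.259), and -0.49 after removal of the length trend (limma adjusted p = 0.0797). In the authors' deposited table the q-value of Keap1 is 0.0239, with a log2 fold change of -0.19, and the gene is not marked as significant. Keap1 lies on the minus strand of chromosome 9, from 21229730 to 21239361 on GRCm38. Its principal transcripts are 2163 to 3614 bases long, so its length-corrected value depends on which one is taken, and with the shorter one it was -0.39 (limma adjusted p = 0.143).

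The ratio of Nfe2l2 to Keap1 within a library is not altered by a scaling factor of that library. It was 3.76, 3.35 and 2.87 in rFGF4 libraries, against 1.77, 2.10 and 2.42 in PBS libraries. Every rFGF4 library was thus above every PBS library, at 3.33 ± 0.447 against 2.09 ± 0.323 (SD, n = 3 each; exact two-sided permutation p = 0.1, the smallest that 3 against 3 libraries allow). The difference in log2 fold change between these genes was 0.67 as deposited and 0.75 with the length trend removed, and lay between 0.55 and 0.79 in all alternatives tried. The pair was chosen after its values were seen.

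Superoxide dismutases turn superoxide into hydrogen peroxide, and the 3 mouse enzymes differ in place: SOD1 with copper and zinc works in the cytosol, SOD2 with manganese in mitochondria, and SOD3 with copper and zinc outside the cell. Sod1 measured 9.89, 14.1 and 12.8 FPKM in rFGF4 libraries, against 22.8, 19.8 and 23.8 FPKM in PBS libraries. The groups were well apart, with every rFGF4 library lower. Its log2 fold change was -0.86 (SE 0.161, 95% interval -1.24 to -0.48, limma adjusted p = 0.0259), and the authors' deposited table gives a q-value of 2.1e-08 and marks the gene as significant. At 641 bases the principal transcript of Sod1 is the shortest of the 10, and it belongs to a length class in which 14.9% of genes were called lower. Without the length trend its log2 fold change was -0.40 (limma adjusted p = 0.164), so that the fall was called as deposited and not with that trend removed. The call was kept without rFGF4 replicate 2 (limma adjusted p = 0.0364) and was lost without any other single library (0.056 to 0.091). Sod1 lies on the plus strand of chromosome 16, from 90220754 to 90226329 on GRCm38.

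Sod2 measured 7.47, 7.50 and 10.3 FPKM in rFGF4 libraries, against 8.40, 7.35 and 10.3 FPKM in PBS libraries. The groups overlapped fully, and rFGF4 replicate 3 and PBS replicate 3 were the highest. Its log2 fold change was -0.05 (limma adjusted p = 0.894), with a 95% interval of -0.49 to 0.40, and its sign turned without rFGF4 replicate 1, rFGF4 replicate 2 or PBS replicate 3. After removal of the length trend it was -0.45 (limma adjusted p = 0.292), for an annotated transcript of 5861 bases, the longest of the 10.

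Sod3 measured 14.7, 12.2 and 34.3 FPKM in rFGF4 libraries, against 10.6, 9.85 and 16.0 FPKM in PBS libraries. The high value of rFGF4 replicate 3 set the mean, and the other rFGF4 libraries lay within the PBS range. Its log2 fold change of 0.62 had the widest error of the 10 (SE 0.398, limma adjusted p = 0.33), and without rFGF4 replicate 3 it was 0.17. SOD3 is known as an enzyme of vessel walls. Markers of smooth muscle and pericytes summed to 322, 314 and 375 FPKM in rFGF4 libraries, against 277, 362 and 324 FPKM in PBS libraries, and endothelial markers to 111, 63.0 and 124 FPKM in rFGF4, against 65.9, 57.2 and 80.0 FPKM in PBS libraries. Both sums were highest in rFGF4 replicate 3. Their part in the Sod3 value was not tested.

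Summed over the 3 genes, superoxide dismutase transcripts came to 32.1, 33.8 and 57.4 FPKM in rFGF4 libraries, against 41.9, 37.0 and 50.2 FPKM in PBS libraries, and these ranges overlapped. Sod1 gave 30.8%, 41.7% and 22.3% of it in rFGF4 libraries, against 54.6%, 53.5% and 47.5% in PBS libraries (exact two-sided permutation p = 0.1, the smallest possible). Sod3 gave 45.9%, 36.2% and 59.8% in rFGF4 libraries, against 25.4%, 26.6% and 31.9% in PBS libraries (exact two-sided permutation p = 0.1). The share of Sod2 was 21.1% ± 2.80 in rFGF4 and 20.2% ± 0.367 in PBS libraries (SD, n = 3 each). The shares set a transcript of 641 bases (Sod1) against transcripts of 5861 (Sod2) and 3738 bases (Sod3) and thus carry the length trend. After its removal the log2 fold changes were -0.40 for Sod1, -0.45 for Sod2 and 0.31 for Sod3, so the shift of Sod1 against Sod2 seen as deposited was no longer there.

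Catalase, the peroxisomal enzyme that splits the hydrogen peroxide made by such reactions into water and oxygen, measured 39.2, 34.5 and 40.2 FPKM in rFGF4 libraries, against 21.6, 29.2 and 24.9 FPKM in PBS libraries. The groups did not overlap, and the ratio of the means was 1.51. The log2 fold change was 0.60 (SE 0.146, 95% interval 0.25 to 0.94, limma adjusted p = 0.0452), or 0.40 above the median of all genes. This call was narrow: it was lost with each of the 6 libraries left out in turn (limma adjusted p = 0.0701 to 0.121), with median-centred libraries (0.204), with quantile normalization (0.0903) and after removal of the length trend (log2 fold change 0.36, limma adjusted p = 0.351). In the authors' deposited table the q-value of Cat is 0.22. Cat lies on the minus strand of chromosome 2, from 103453849 to 103485160 on GRCm38, with 13 exons in its principal transcript of 2613 bases.

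Cat and Sod1 moved in opposite directions, so that their ratio was 3.96, 2.45 and 3.15 in rFGF4 libraries, against 0.946, 1.48 and 1.04 in PBS libraries. The ranges were far apart (exact two-sided permutation p = 0.1, the smallest possible). The difference in log2 fold change was 1.45 as deposited, and it was 0.77 with the length trend removed, since the transcripts differ in length. This pair was also chosen after the values were seen. Catalase is known to be abundant in fat and in red cells. Fibroblast markers summed to 4847 to 5451 FPKM in rFGF4 libraries, against 2674 to 3378 FPKM in PBS libraries, with 6 of 8 markers called higher where 8.46% of all genes were, and 0 of 8 called after removal of the length trend. Sebaceous gland markers summed to 239 to 372 FPKM in rFGF4, against 152 to 203 FPKM in PBS libraries, with 1 of 6 called higher and 0 of 6 after removal of the length trend. The 1 called, Scd1, made up most of this sum, at 183 to 253 FPKM in rFGF4 and 95.0 to 115 FPKM in PBS libraries. Scd3 also lay apart on the higher side, while Awat1, Elovl3, Mc5r and Mgst1 overlapped between the groups. Adipocyte markers summed to 58.9 to 66.1 FPKM in rFGF4, against 45.6 to 66.9 FPKM in PBS libraries, with 0 of 6 tested called higher and 1 lower. This sum mixes opposite directions, with 4 positive and 2 negative fold changes. Ucp1, a brown fat marker, was the 1 called lower (log2 fold change -3.72). It measured 0.253, 0.440 and 3.28 FPKM in rFGF4 libraries, against 9.01, 11.0 and 14.4 FPKM in PBS libraries. Only rFGF4 replicate 3 of the rFGF4 libraries reached 1 FPKM, so Ucp1 passed the filter through the PBS group. Its call was lost after removal of the length trend (limma adjusted p = 0.081). Adipoq (0.72) and Pparg (0.58) were not called, but their groups lay apart on the higher side, as did 30.9% of all genes. Erythroid markers summed to 173 to 687 FPKM in rFGF4, against 418 to 847 FPKM in PBS libraries, with 0 of 5 tested called. The part of any of these cell types in the Cat values was not tested.

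**Figure D2:**
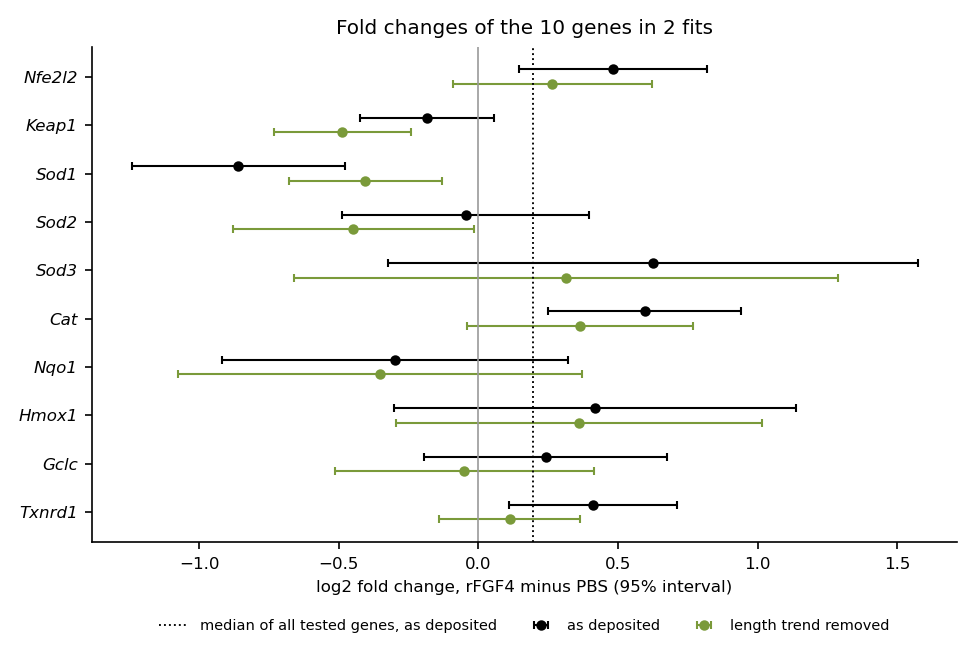
Log2 fold change (rFGF4 minus PBS) of each gene with its 95% interval from limma, in black as deposited and in green with the length trend removed; the dotted line is the median of all tested genes, 0.19. Sod1 and Cat move toward 0 when the length trend is removed, Keap1 and Sod2 move away from it, and Sod3 has the widest interval.

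The remaining 4 genes are classical targets of NRF2. Txnrd1, the cytosolic thioredoxin reductase, a selenoprotein that recycles thioredoxin, measured 20.4, 23.6 and 22.5 FPKM in rFGF4 libraries, against 18.2, 14.6 and 17.3 FPKM in PBS libraries. The groups lay apart with rFGF4 higher. Its log2 fold change was 0.41 (SE 0.127, limma adjusted p = 0.0779), and removing the length trend gave 0.11 (limma adjusted p = 0.647). Its principal transcripts are 2297 to 3531 bases long, and with the shorter one the length-corrected value was 0.19 (limma adjusted p = 0.389). Of the genes whose groups lay apart upward, Txnrd1 was the one with the smallest change.

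Gclc, the catalytic subunit of the enzyme that makes the first step of glutathione synthesis, measured 14.0, 16.9 and 12.3 FPKM in rFGF4 libraries, against 10.9, 15.1 and 10.7 FPKM in PBS libraries. The groups overlapped, and rFGF4 replicate 2 and PBS replicate 2 were the highest. The log2 fold change was 0.24 (SE 0.184, limma adjusted p = 0.413), and its sign turned with the length trend removed (-0.05).

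Nqo1, the quinone reductase often used as a marker of NRF2 activity, was the least abundant of the 10 and measured 4.25, 2.59 and 4.47 FPKM in rFGF4 libraries, against 4.49, 5.73 and 3.63 FPKM in PBS libraries. The groups overlapped. The log2 fold change was -0.30 (95% interval -0.92 to 0.32, limma adjusted p = 0.478), so neither a fall nor a small rise could be told from the spread between libraries.

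Hmox1, the inducible heme oxygenase that breaks heme down to biliverdin, iron and carbon monoxide, was the most abundant of the 10 and measured 144, 270.2 and 180.2 FPKM in rFGF4 libraries, against 118, 124 and 201 FPKM in PBS libraries. The groups overlapped, with PBS replicate 3 above 2 of the 3 rFGF4 libraries. The log2 fold change was 0.42 (SE 0.303, limma adjusted p = 0.39), 0.66 without PBS replicate 3 and 0.17 without rFGF4 replicate 2. Macrophages that take up red cells are a known source of Hmox1. Macrophage markers summed to 484, 708 and 539 FPKM in rFGF4 libraries, against 368, 329 and 525 FPKM in PBS libraries. Of these 8 markers 2, Mrc1 and Cd163, were called higher, beside 8.46% of all genes. After removal of the length trend 1 of 8, Mrc1, was called higher, beside 0.543% of all genes. Adgre1, Cd68, Csf1r, C1qa, C1qb and C1qc were called in neither fit. The libraries with the largest macrophage sum in each group, rFGF4 replicate 2 and PBS replicate 3, also had the most Hmox1. The part of macrophage number in the Hmox1 value was not tested.

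**Figure D3:**
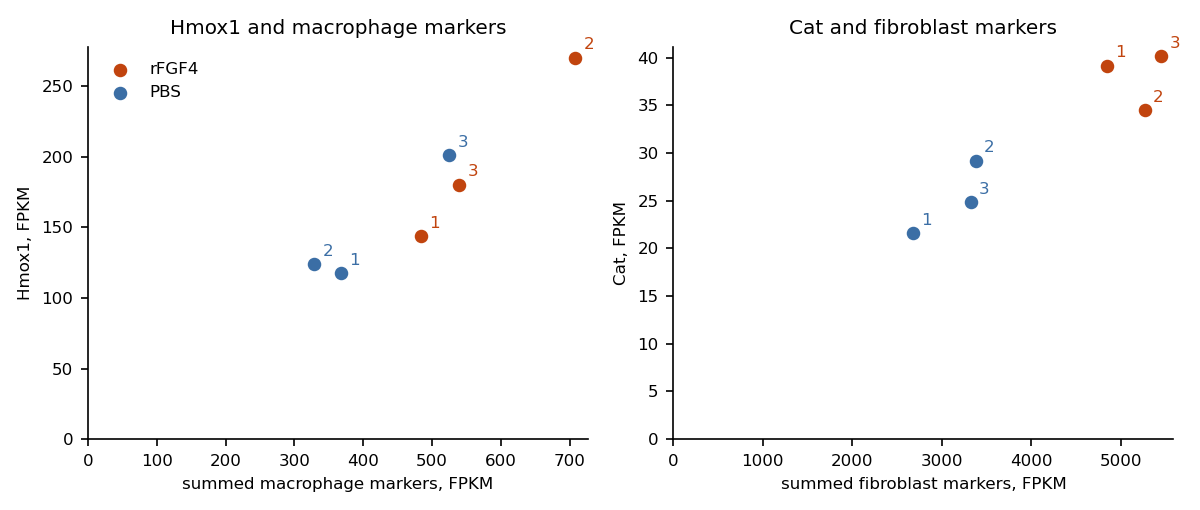
Left, Hmox1 against the summed FPKM of 8 macrophage markers; right, Cat against the summed FPKM of 8 fibroblast markers, with 1 point per library labelled by replicate number (rFGF4 orange, PBS blue). Hmox1 is highest in rFGF4 replicate 2, at 270.2 FPKM, where the macrophage sum is also highest, at 708 FPKM, and the groups lie apart for Cat and for the fibroblast sum.

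FPKM are scaled to annotated length, but that length is uncertain for some genes and the values carry a length trend, so the order of levels is a description. In rFGF4 libraries the order was Hmox1 (198 FPKM), Nfe2l2 (39.5), Cat (38.0), Txnrd1 (22.2), Sod3 (20.4), Gclc (14.4), Sod1 (12.3), Keap1 (11.9), Sod2 (8.43) and Nqo1 (3.77), as mean FPKM. In PBS libraries it was Hmox1 (148 FPKM), Nfe2l2 (28.4), Cat (25.2), Sod1 (22.1), Txnrd1 (16.7), Keap1 (13.6), Gclc (12.2), Sod3 (12.2), Sod2 (8.69) and Nqo1 (4.61). The place of Sod1 is not resolved, since it overlapped with Gclc and Keap1 in rFGF4 and with Cat in PBS libraries. Nfe2l2 and Cat overlapped in both groups, as did Sod3 and Gclc. In rFGF4 libraries all neighbours from Txnrd1 to Keap1 overlapped, and in PBS libraries those from Keap1 to Sod2. Hmox1 at the top and Nqo1 at the bottom overlapped with no neighbour in either group. Over the 6 libraries on the log2 scale, Nfe2l2 was most like the table entry ENSMUSG00000119961 (Pearson's r 0.997), Vcpip1 (0.995), a deubiquitinase gene, and S100pbp (0.994). Among the 10 genes Cat came closest (r 0.876), and Keap1 was the most unlike (r -0.933). These values include the group difference, rest on 6 libraries and are descriptions only.

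The genes around the NRF2 pathway were read in 11 lists with 122 genes. Of these, 4 (Gsta3, Duox2, Mpo and Nox1) had no entry under these symbols in the deposited table, and 2 (Gsta2 and Btrc) stayed below the filter. Over the 117 tested lines of these lists (Nnt has 2 lines), 7 rose and 4 fell, or 5.98% and 3.42%, beside 8.46% and 3.62% of all genes. Their median log2 fold change was 0.07. With the length trend removed 0 rose and 3 fell, with a median of -0.10.

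Partners and regulators of NRF2 held 4 of the 7 rises. These were 30.8% of the 13 tested genes, beside 8.46% of all genes called higher. The median log2 fold change of the list was 0.13, below the 0.19 of all tested genes, with 9 positive and 4 negative values. Bach1, the repressor that competes with NRF2 at antioxidant response elements and is known for holding down Hmox1, averaged 13.5 ± 1.59 FPKM in rFGF4 and 8.75 ± 0.918 FPKM in PBS libraries (SD, n = 3 each; log2 fold change 0.62, limma adjusted p = 0.0377). The kinase gene Fyn, named as a brake on nuclear NRF2, averaged 15.2 ± 1.52 FPKM in rFGF4 and 8.86 ± 1.83 FPKM in PBS libraries (limma adjusted p = 0.0376), and Ahr, the dioxin receptor that also drives Nqo1, averaged 6.67 ± 1.22 FPKM in rFGF4 and 3.80 ± 0.190 FPKM in PBS libraries (limma adjusted p = 0.0323). The fourth, Gsk3b, a kinase that marks NRF2 for destruction apart from KEAP1, had a log2 fold change of 0.56 (limma adjusted p = 0.0412) and is named here after its value was seen. The ligase gene Cul3 had 0.49 and did not pass (limma adjusted p = 0.0509), and it too is named after its value was seen. Rbx1 of the same list lay apart on the lower side and did not pass either (log2 fold change -0.38, limma adjusted p = 0.126). It was also picked after its value was seen. The transcripts of Bach1, Fyn, Ahr, Gsk3b and Cul3 have 3562 to 8303 bases. With the length trend removed 0 of the 13 genes passed limma, with a list median of -0.19. Bach1, Ahr and Gsk3b belong to the class of 4000 bases and over, where 714 of 3957 genes were called higher. Of the called genes, Bach1, Fyn and Gsk3b lost the call without each single library, and Ahr kept it in 1 of those 6 fits.

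Enzymes that act beside the 10 genes gave few calls. None of 10 genes of glutathione synthesis and recycling passed (median -0.01), and Gclm, which encodes the partner subunit of Gclc, had the smallest unadjusted p, with 7.23 ± 1.16 FPKM in rFGF4 and 5.15 ± 0.719 FPKM in PBS libraries (limma adjusted p = 0.102). Among genes of NADPH supply, Me1, the cytosolic malic enzyme, rose to 29.4 ± 2.55 FPKM in rFGF4 libraries, against 20.6 ± 2.16 FPKM in PBS libraries (limma adjusted p = 0.0473), a call lost without each single library. Of 12 glutathione peroxidases and peroxiredoxins 1 fell and 0 rose, or 8.33% lower beside 3.62% of all genes. The 1 was Gpx1, the selenium-dependent peroxidase of the cytosol. It averaged 68.3 ± 10.1 FPKM in rFGF4 and 122 ± 8.70 FPKM in PBS libraries (log2 fold change -0.85 with an SE of 0.15, limma adjusted p = 0.023). Gpx1 was also called after removal of the length trend (log2 fold change -0.70, limma adjusted p = 0.0327) and with median-centred libraries, and among the fits without 1 library it was called in the 1 without rFGF4 replicate 2. Txn1, the cytosolic thioredoxin that Txnrd1 recycles, was the 1 call among 14 genes of its list, or 7.14% beside 3.62% of all genes called lower. It averaged 93.8 ± 18.2 FPKM in rFGF4 and 156 ± 15.4 FPKM in PBS libraries (limma adjusted p = 0.0452). That call was lost after removal of the length trend (0.145) and without each single library. Thioredoxin and its reductase had log2 fold changes of opposite sign, -0.75 for Txn1 and 0.41 for Txnrd1, but Txnrd1 was not called. With the length trend removed they were -0.59 for Txn1 and 0.11 for Txnrd1. The difference between them was not tested.

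None of 12 tested glutathione transferases passed (median -0.26), and the lowest p was that of Gstp1, at 50.0 ± 7.14 FPKM in rFGF4 and 66.4 ± 5.60 FPKM in PBS libraries (limma adjusted p = 0.104); Gstp1 has a near-identical neighbour, so its value is uncertain. Ugdh, which makes the UDP-glucuronic acid used in conjugation and in hyaluronan, was the 1 call among 12 genes of quinone and carbonyl detoxification. That is 8.33%, beside 8.46% of all genes called higher. Ugdh averaged 16.5 ± 2.50 FPKM in rFGF4 and 9.28 ± 0.699 FPKM in PBS libraries (log2 fold change 0.82, limma adjusted p = 0.023). The call of Ugdh was lost after removal of the length trend (0.0877), and of the fits without 1 library it held in the 1 without rFGF4 replicate 1. None of 9 genes of heme and iron handling passed, and Cp, the plasma copper oxidase ceruloplasmin, had the smallest p, at 3.22 ± 0.922 FPKM in rFGF4 and 1.53 ± 0.420 FPKM in PBS libraries (limma adjusted p = 0.0548). None of 10 peroxisomal genes passed either. Of these genes 9 of 10 had positive fold changes, as did 69.8% of all tested genes, with a median of 0.20 beside 0.19 over all genes. After removal of the length trend the median of this list was -0.06. Hsd17b4, an enzyme of peroxisomal fatty acid breakdown, averaged 22.3 ± 2.44 FPKM in rFGF4 and 16.8 ± 1.03 FPKM in PBS libraries (limma adjusted p = 0.0795).

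SOD1 and SOD3 need copper. A list of 5 genes of copper handling held 2 falls, or 40.0%, beside 3.62% of all genes (median log2 fold change -0.42). Only Atox1 of these 2 lies on a route to a superoxide dismutase. Atox1, the copper chaperone that feeds the secretory pathway and so SOD3, measured 14.1, 35.2 and 23.2 FPKM in rFGF4 libraries, against 106, 84.9 and 81.3 FPKM in PBS libraries. The groups were far apart (log2 fold change -1.99 with an SE of 0.321, limma adjusted p = 0.0196), on a transcript of 541 bases. Under 600 bases 30.2% of all tested genes were called lower. Cox17, which brings copper to cytochrome oxidase in mitochondria, measured 2.38, 2.94 and 2.64 FPKM in rFGF4 libraries, against 5.59, 5.64 and 6.01 FPKM in PBS libraries (log2 fold change -1.09, limma adjusted p = 0.00902). After removal of the length trend Atox1 was at -1.44 (limma adjusted p = 0.0425). Cox17 has principal transcripts of 444 to 3690 bases, and its length-corrected value was -1.40 with the longer one (limma adjusted p = 0.00536) and -0.46 with the shorter one (limma adjusted p = 0.126). Atox1 kept its call without rFGF4 replicate 1 or 2 and lost it without each other library. Among the fits without 1 library, Cox17 lost its call in the 1 without PBS replicate 1 (limma adjusted p = 0.0526). With the replicate block neither was called (limma adjusted p = 0.0662 for Atox1 and 0.0511 for Cox17). Ccs, the chaperone that loads SOD1, averaged 11.4 ± 3.69 FPKM in rFGF4 and 14.7 ± 1.04 FPKM in PBS libraries and did not pass (limma adjusted p = 0.311); it is named after its value was seen.

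Of 11 tested genes that make superoxide or peroxide, 1 was called higher, or 9.09% beside 8.46% of all genes. The 1 was Nox4, an NADPH oxidase that releases hydrogen peroxide in fibroblasts and vessels. It measured 1.86, 1.91 and 2.66 FPKM in rFGF4 libraries, against 0.957, 0.934 and 1.17 FPKM in PBS libraries (log2 fold change 0.99, limma adjusted p = 0.0359). Only 1 PBS library reached 1 FPKM, so Nox4 passed the filter through the rFGF4 group, and the fold change was 0.63 with a pseudocount of 1 FPKM. The rise of Nox4 was lost without each single library and after removal of the length trend (limma adjusted p = 0.201). Fibroblast markers were called higher in 6 of 8 as deposited and in 0 of 8 after removal of the length trend, and their part in the Nox4 value was not tested. Cybb, the catalytic chain of the phagocyte oxidase, averaged 10.3 ± 2.69 FPKM in rFGF4 and 8.47 ± 5.85 FPKM in PBS libraries, and its wide spread left no difference beyond error (limma adjusted p = 0.547); it too is named after its value was seen. Neutrophil markers summed to 242 to 728 FPKM in rFGF4, against 482 to 2848 FPKM in PBS libraries, with 0 of 5 tested markers called. S100a9 (log2 fold change -1.74) and S100a8 (-2.28) made up most of this sum, and only S100a8 lay apart on the lower side. Their transcripts have 519 and 486 bases, and under 600 bases 30.2% of all tested genes were called lower. Csf3r (-0.12), Cxcr2 (-0.13) and Retnlg (-0.23) overlapped between the groups.

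**Figure D4:**
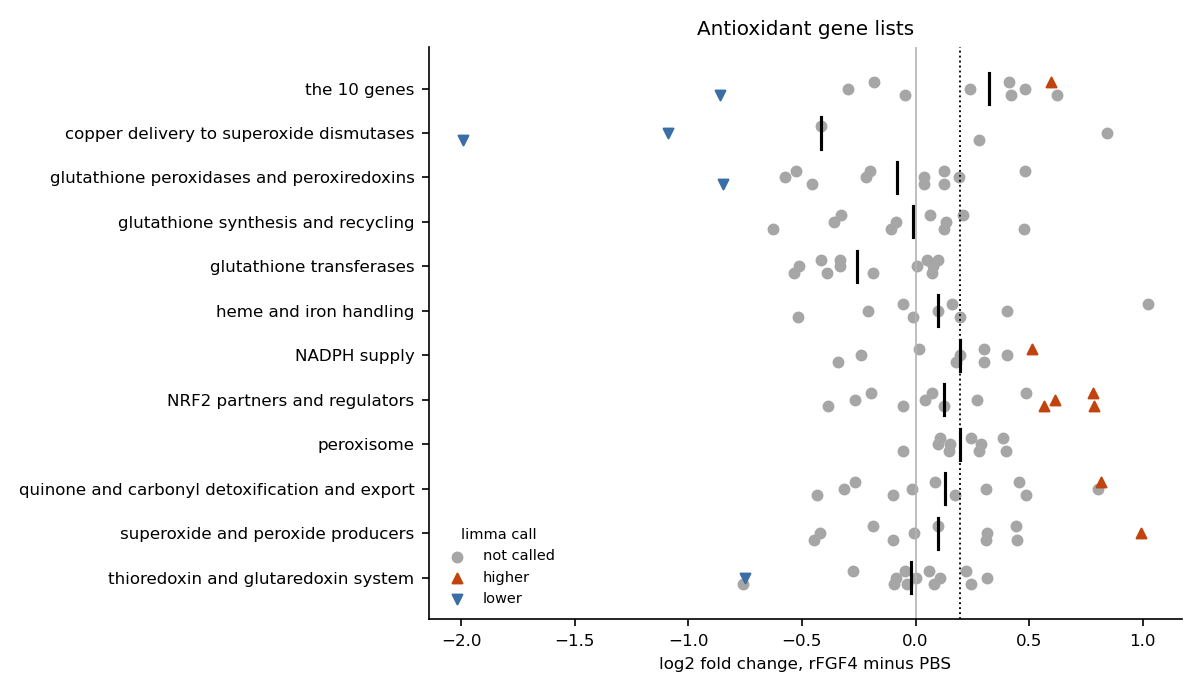
Log2 fold change (rFGF4 minus PBS) of each tested gene in the 10 genes and in the 11 wider lists; triangles are genes called higher or lower by limma, grey points were not called, short black lines are list medians and the dotted line is the median of all tested genes, 0.19. Of the 7 rises in the wider lists 4 are partners and regulators of NRF2, and of the 4 falls 2 are in the copper list. Atox1 at -1.99 is the lowest point.

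**Figure D5:**
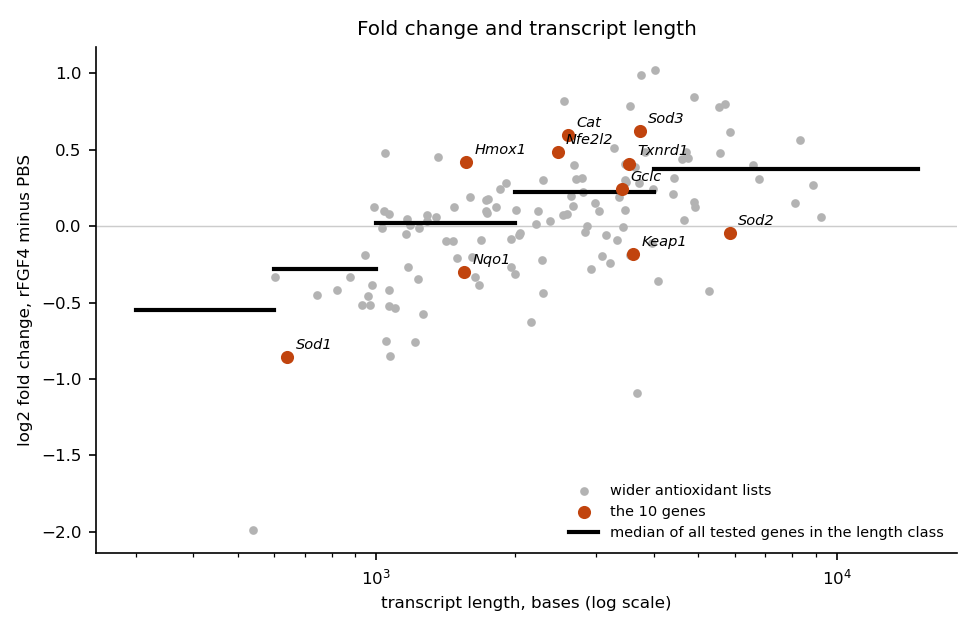
Log2 fold change (rFGF4 minus PBS) against annotated transcript length on a log axis, for the 10 genes (orange) and the wider lists (grey); black lines are the medians of all tested genes in 5 length classes. Sod1 lies at the short end below the median of its class, -0.28, Nfe2l2 and Cat lie above the median of theirs, 0.22, and Keap1 lies below it.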

How the data were processed

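Poly(A) RNA of 6 skin samples was made into dUTP libraries for paired-end sequencing, per the labels' protocols. GRCh38, a human build although the samples are mouse, is the build in the submitters' processing notes, which list the tools edgeR, StringTie, HISAT2 and fastp; roles, versions and use of strand are not given in the sources used here, so overlapping genes and near-identical copies are uncertain. The 6 value columns of the deposited table were taken to be the authors' FPKM, from the values and StringTie, since the header names no unit; 0 columns lacked a sample. The deposited table also gives the authors' p-value and q-value, fold (a ratio) and log2 fold change per gene, quoted only where named. Every listed gene passes 1 FPKM in some library.

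On log2(FPKM + 0.1), limma-trend was run on genes that reached 1 FPKM in 3 or more libraries (limma 3.58.1, R 4.3.3, robust, two-sided), with group as the term. Folds on this scale understate changes of low genes. The members and lists were chosen with earlier results of these data known. Named genes are the 10 members, up to 3 called genes per list with the smallest unadjusted p (or the 1 smallest where none was called) and the 3 genes most correlated with Nfe2l2. Lengths and positions are from GENCODE M21 (GRCm38), matched by symbol for 96.7% of tested genes; the length is that of the longest principal transcript, and its trend was removed per library by loess (span 0.3). The authors may have used another build. Promoters are from RefSeq. Alternatives were other pseudocounts, filters and scalings, removal of the length trend, a replicate block and each library left out; the shortest principal transcript and the ratios were added after the data were seen. Scripts were tested on simulated data. The labels give no batch, so none was tested.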

Additional observations from a re-analysis of the deposited data

How the results depend on the processing

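As deposited, 1241 genes were called higher and 532 lower over all genes, 1 and 1 among the 10 genes, and 7 and 4 in the wider lists. Removing the length trend gave 77 and 229, 0 and 0, and 0 and 3, and with the shortest principal transcript 75 and 213, 0 and 0, and 0 and 2. Median centring gave 138 higher over all genes (617 lower), 0 higher among the 10 and 1 in the wider lists; quantile normalization gave 235 (514 lower), 0 and 1. The split of calls thus moved from 70.0% higher to 18.3% and 31.4%. With the replicate block, 31 and 202 genes passed, 0 and 0 of the 10, and 0 and 0 of the wider lists. The replicate numbers share only a number: deviations of same-numbered libraries correlated at 0.18, -0.07 and -0.13. Without 1 library, 24 to 393 genes were higher and 132 to 497 lower, 0 and 0 to 1 of the 10, and 0 to 2 and 0 to 3 of the wider lists. Pseudocounts of 1 and 0.01, no filter and at least 5 FPKM changed no call among the 10 genes; Nqo1 was not tested at 5 FPKM. Of 149 values of the 10 genes under alternatives, 125 kept sign and side of the threshold and 19 lost the call, all of Cat or Sod1. Signs turned for Gclc (-0.0499 with the length trend removed and -0.060 with the shortest transcript) and for Sod2 without rFGF4 replicate 1 (0.03) or 2 (0.03) or PBS replicate 3 (0.084), within a range of -0.20 to 0.084 without 1 library. The causes were not tested. FPKM give no depth, so the precision of single values is known only from 3 libraries per group.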

Other observations

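Some genes of the wider lists had groups that did not overlap and limma adjusted p just over the threshold, and were picked after their values were seen. Gpx8, a peroxidase of the endoplasmic reticulum, measured 56.9, 63.6 and 57.6 FPKM in rFGF4 libraries, against 36.6, 43.3 and 48.5 FPKM in PBS libraries (log2 fold change 0.48, limma adjusted p = 0.0692). With the length trend removed its value was 0.65 (limma adjusted p = 0.105). Gpx8 thus had a positive change as deposited, whereas Gpx1 was called lower; the difference between them was not tested. Atp7a, the copper pump that loads SOD3 in the Golgi, measured 2.20, 2.20 and 2.17 FPKM in rFGF4 libraries, against 0.953, 0.9998 and 1.70 FPKM in PBS libraries. Its log2 fold change was 0.84 (limma adjusted p = 0.067, and 0.375 after removal of the length trend). Only PBS replicate 3 of the PBS libraries reached 1 FPKM, so Atp7a passed the filter through the rFGF4 group, and its values lie close to that filter. Its spread was much smaller in rFGF4 libraries, at an SD of 0.0199 FPKM against 0.416 FPKM in PBS libraries. Abcc4, an exporter of conjugates, had a log2 fold change of 0.80 (limma adjusted p = 0.0568).

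The ferritin genes were the most abundant of the wider lists. Ftl1 averaged 865 ± 388 FPKM in rFGF4 and 1189 ± 347 FPKM in PBS libraries, and Fth1 473 ± 125.0 FPKM in rFGF4 and 604 ± 381 FPKM in PBS libraries (SD, n = 3 each). Neither passed (limma adjusted p = 0.384 and 0.782), and the spread between libraries of a group was wide.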
